A study of Mus musculus with 6 samples.

Results

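The solute carriers are the genes with an Slc symbol, and 177 of the 11386 genes in the tables of mouse dental mesenchymal cells (mDMCs) carry one. The members were chosen by symbol alone, as every gene whose name begins with Slc and a number, and they fall into 42 carrier numbers, each of which stands for a family of related proteins. Of the 177, 174 encode carriers, and 3 (*Slc4a1ap*, *Slc7a6os* and *Slc9a3r2*) encode other proteins that were named after a carrier. The mouse annotation GENCODE M21 has 379 Slc symbols, and those not in the tables were not analysed here.

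The cells were dental mesenchyme of lower first molar tooth germs of mice at embryonic day 14.5. They were freshly isolated (P0) or grown in culture medium with fetal bovine serum for 1 passage (P1) or 2 passages (P2). The paper names ICR mice as the hosts of its grafts and does not state the strain of the embryos. The question was which genes change in expression in culture. The sources give no genetic change or drug treatment for any of the 3 passages, and the cells were detached with trypsin and measured by RNA-seq in 2 libraries a passage. The sources do not say whether the 2 libraries came from separate cultures, so the p-values measure only the spread between these libraries, which may be technical. P1 and P2 were grown on from cells isolated like P0, and P0 cells were never cultured.

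Solute carriers are membrane proteins that move small molecules, either down a gradient or by coupling one solute to another such as sodium or protons. Amino acid and sugar carriers feed growth, ion exchangers set cell pH and calcium, Slc25 carriers serve the inner mitochondrial membrane, and Slc35 carriers load the Golgi and endoplasmic reticulum with sugar nucleotides. In mineralizing tissues such as tooth, phosphate, bicarbonate, calcium and zinc carriers are known for their part in forming matrix and mineral.

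The deposited values are the authors' normalized expression values, given as a mean and an error for each passage, from which both library values follow. They are printed as scaled units, in which the genes of a passage sum to 1000000, and 1 scaled unit is 18.7 deposited units. Coordinates are those of the tables (mm10). A level is comparable between passages for 1 gene but not between genes, because it is not divided by gene length. The highest levels recur across genes and libraries, which limits such comparisons at the top of the range. Fold changes are differences of log2(scaled units + 1), so the change of a gene near 0 is understated. A gene was called where its adjusted p was under 0.05 in limma over all 11386 genes and it differed at least 2-fold, and "rose" and "fell" are used for called genes only.

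A set of promoters is shown first because the letters in capitals in them belong to motifs of pathways that the carriers below take part in. The amino acid response element is a site through which the transcription factor ATF4 raises genes when amino acids are scarce, and its core was searched as TGATGNAA. The metal response element is the site of the zinc-sensing factor MTF1, and its core was searched as TGCACNC and as TGCGCNC. Each window runs from 250 bases before to 50 bases after the RefSeq start site (GRCm38.p6), reads 5′ to 3′ on the strand of the gene, and was searched on both strands, so that capitals can be a motif or its reverse complement. In the 3 windows shown, no match overlaps another. *Slc7a11* (chr3:50443564-50443863, minus strand) carries the amino acid element in both orientations, *Slc1a4* (chr11:20332664-20332963, minus strand) carries it once, and *Slc30a1* (chr1:191906531-191906830, plus strand) carries both metal elements.
Slc7a11: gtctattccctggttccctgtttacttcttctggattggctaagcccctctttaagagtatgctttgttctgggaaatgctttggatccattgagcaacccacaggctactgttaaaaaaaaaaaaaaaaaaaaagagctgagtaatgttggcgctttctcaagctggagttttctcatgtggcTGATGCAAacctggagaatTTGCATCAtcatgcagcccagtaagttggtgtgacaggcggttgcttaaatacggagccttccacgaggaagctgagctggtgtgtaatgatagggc
Slc1a4: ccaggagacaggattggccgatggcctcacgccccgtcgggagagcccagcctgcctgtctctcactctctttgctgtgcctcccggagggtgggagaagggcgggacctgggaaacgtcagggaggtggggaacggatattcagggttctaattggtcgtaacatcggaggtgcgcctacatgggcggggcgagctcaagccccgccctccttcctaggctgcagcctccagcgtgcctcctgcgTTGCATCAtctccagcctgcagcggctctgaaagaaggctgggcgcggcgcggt
Slc30a1: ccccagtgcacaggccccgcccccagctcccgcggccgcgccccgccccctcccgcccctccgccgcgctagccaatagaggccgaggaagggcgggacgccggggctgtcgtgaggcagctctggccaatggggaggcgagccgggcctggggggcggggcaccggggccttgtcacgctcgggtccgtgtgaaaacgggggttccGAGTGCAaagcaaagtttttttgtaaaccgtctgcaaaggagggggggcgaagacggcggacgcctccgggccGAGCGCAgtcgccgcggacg
A promoter was found by symbol for 136 of the 177 genes, and 95 of these start within 50 bases of the start in the tables. The core of the amino acid element was in 4 of the 136 (2.94%), in *Slc1a4*, *Slc7a11*, *Slc9a9* and *Slc50a1*, against 4.07% of 27017 mouse promoters of the same length. TGCACNC was in 19 (14.0%), against 12.5% of all promoters, and TGCGCNC was in 30 (22.1%), against 15.2%. A match is a description of the letters and not evidence of binding.

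More carriers were called higher than lower in culture. In P1, 33 of the 177 genes rose (18.6%) and 21 fell (11.9%) against P0, beside 12.2% of all genes called higher and 12.0% called lower. In P2, 36 rose (20.3%) and 21 fell (11.9%) against P0, beside 14.0% of all genes called higher and 14.4% called lower. The median log2 fold change of the carriers was 0.31 in P1 and 0.37 in P2, against 0.02 and 0.01 over all genes. Both comparisons use the same P0 libraries, and 31 genes were called higher and 17 lower in both. *Slc25a24* and *Slc38a4* rose in P1 alone, and *Slc4a3*, *Slc6a17*, *Slc25a25* and *Slc25a36* fell in P1 alone. *Slc7a11*, *Slc20a1*, *Slc25a33*, *Slc33a1* and *Slc39a14* were called higher in P2 alone, and *Slc2a3*, *Slc7a6os*, *Slc26a7* and *Slc43a1* lower in P2 alone. A call in only 1 passage does not show that the passages differ, and none of these genes was called between P2 and P1.

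**Figure D1:**
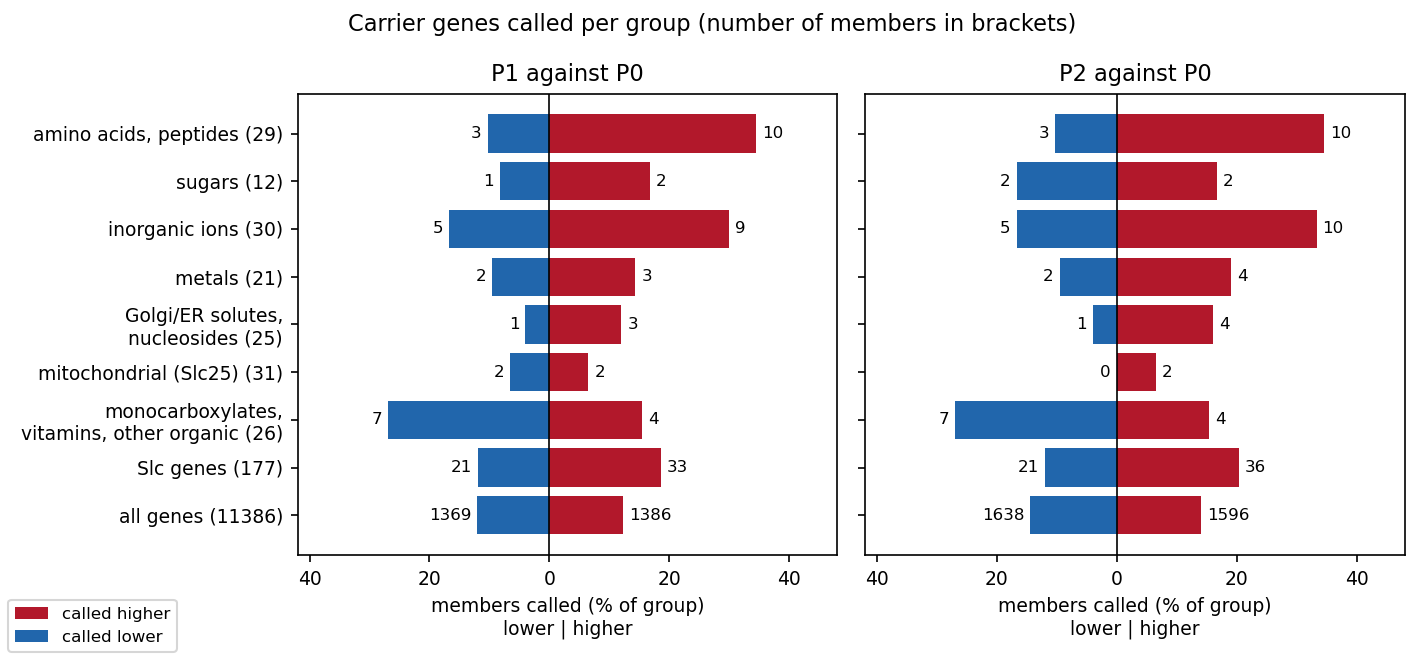
Share of each carrier group called higher (red, to the right) or lower (blue, to the left) in P1 against P0 and in P2 against P0, in percent of the members measured, with the number of genes beside each bar and the size of the group in brackets. The 3 genes named after a carrier are left out of the group rows. The 2 bottom rows give the 177 Slc genes and all 11386 genes, of which 12.2% were higher and 12.0% lower in P1, and 14.0% and 14.4% in P2. Of the inorganic ion carriers, 9 and 10 of 30 were called higher, and 7 of these were listed in the tables through cultured cells alone.

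The tables hold only genes with more than 100 deposited units in at least 2 libraries, so a gene that is low on one side had to differ to be listed. Of the 177 genes, 10 passed this minimum through P0 alone and 17 through P1 and P2 alone. Without these 27, 20 of 150 rose (13.3%) and 13 fell (8.7%) in P1, against 8.7% and 9.1% of the 10159 genes of the tables that were treated alike. In P2, 23 rose (15.3%) and 13 fell (8.7%), against 10.5% and 11.7%. The 10 listed through P0 were *Slc4a1*, *Slc8a2*, *Slc8a3*, *Slc16a10*, *Slc22a23*, *Slc25a53*, *Slc35f2*, *Slc37a2*, *Slc39a8* and *Slc44a5*. Those listed through cultured cells were *Slc1a6*, *Slc2a6*, *Slc4a4*, *Slc4a10*, *Slc7a3*, *Slc8b1*, *Slc9a9*, *Slc13a1*, *Slc16a7*, *Slc22a15*, *Slc24a3*, *Slc25a29*, *Slc29a3*, *Slc41a2*, *Slc41a3*, *Slc43a2* and *Slc46a1*. Of these 27, 13 were called higher and 8 lower in each of P1 and P2. Of the 1227 genes of the tables that were listed through one side alone, 506 were called higher and 441 lower in P1. In P2, 526 of the 1227 were called higher and 448 lower.

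Of the amino acid carriers, 10 of 29 were called higher (34.5%) and 3 lower (10.3%) in each of P1 and P2, with medians of 0.69 and 0.68 on the log2 scale. Of all genes, 12.2% were higher and 12.0% lower in P1, and 14.0% and 14.4% in P2. Without the 3 genes listed through cultured cells alone, 8 of 26 were higher (30.8%) and 3 lower (11.5%) in each passage, against 8.7% and 9.1% of all genes treated alike in P1 and 10.5% and 11.7% in P2. Their highest folds belonged to genes that were close to 0 in fresh cells. *Slc7a3* (ENSMUSG00000031297, chrX:101079210-101085405), a carrier of the cationic amino acids arginine and lysine, had 0.855 and 1.07 scaled units at P0, 13.2 and 20.4 at P1 and 31.3 and 32.5 at P2. Its libraries did not overlap between any 2 passages. Against P0, it rose by 3.16 ± 0.21 (adjusted p = 0.000142) in P1 and 4.07 ± 0.21 (adjusted p = 4.93e-05) in P2, where ± is the standard error of the fit. *Slc1a6* (ENSMUSG00000005357, chr10:78780496-78814825), a sodium-coupled glutamate carrier known from cerebellar neurons, had 0.855 and 1.07 scaled units at P0, 10.8 and 30.2 at P1 and 19.2 and 47.4 at P2. All 4 cultured libraries lay above both fresh ones, but the cultured duplicates were far apart. Its log2 fold change was 3.29 ± 0.56 (adjusted p = 0.00354) in P1 and 4.0 ± 0.56 (adjusted p = 0.00135) in P2. Both genes passed the minimum of the tables through P1 and P2 alone.

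The second cationic carrier gene, *Slc7a1* (ENSMUSG00000041313, chr5:148327410-148399904), which is expressed widely, had 20.7 and 24.6 scaled units at P0, 68.7 and 78.0 at P1 and 77.3 and 113 at P2. The gene rose by 1.65 ± 0.20 (adjusted p = 0.000965) in P1 and 2.0 ± 0.20 (adjusted p = 0.000356) in P2 on the log2 scale. *Slc7a2*, the third cationic carrier gene, had 9.78 and 10.0 scaled units at P0, 5.02 and 5.02 at P1 and 4.06 and 5.82 at P2. It was not called, at -0.86 in P1 and -0.89 in P2. Thus, of the 3 cationic carriers, 2 were called higher and 1 was lower in every cultured library without a call.

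*Slc7a5* (ENSMUSG00000040010, chr8:121881150-121907694) encodes the light chain of the large neutral amino acid carrier that brings in leucine, and it had 57.3 and 62.4 scaled units at P0, 124 and 178 at P1 and 202 and 238 at P2. Its rise was 1.30 ± 0.18 (adjusted p = 0.00185) in P1 and 1.85 ± 0.18 (adjusted p = 0.000367) in P2. Its heavy chain *Slc3a2* (ENSMUSG00000010095, chr19:8706882-8723369), which also holds *Slc7a11* and other light chains at the membrane, had 87.5 and 90.0 scaled units at P0, 143 and 159.7 at P1 and 169 and 174 at P2. All cultured libraries were above the fresh ones, yet the changes of 0.76 (adjusted p = 0.00104) and 0.94 (adjusted p = 0.00035) were under 2-fold, so *Slc3a2* was not called. *Slc7a11* (ENSMUSG00000027737, chr3:50364936-50443613), which exchanges cystine for glutamate and whose promoter is shown above, had 8.65 and 10.2 scaled units at P0, 13.1 and 27.8 at P1 and 22.0 and 23.9 at P2. Its change was 0.96 ± 0.32 (adjusted p = 0.0422) in P1, just under 2-fold, and it rose by 1.21 ± 0.32 (adjusted p = 0.0176) in P2. *Slc7a6*, another light chain of *Slc3a2*, differed little, at 0.30 and 0.32.

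Neutral amino acid carriers of other families moved in both directions. *Slc1a4* (ENSMUSG00000020142, chr11:20302205-20332684), which exchanges alanine, serine and cysteine, had 40.9 and 41.7 scaled units at P0, 109 and 153 at P1 and 172 and 175 at P2. It was called higher in P1, at 1.62 ± 0.16 (adjusted p = 0.000508), and in P2, at 2.05 ± 0.16 (adjusted p = 0.000162), with no overlap between fresh and cultured libraries. The glutamine exchanger gene *Slc1a5* had 27.7 and 30.1 scaled units at P0, 47.1 and 61.9 at P1 and 44.0 and 69.8 at P2. Neither difference was called, at 0.88 (adjusted p = 0.0205) in P1 and 0.92 (adjusted p = 0.0158) in P2. *Slc6a9*, the glycine carrier gene, had 8.87 and 10.8 scaled units at P0, 18.1 and 37.8 at P1 and 38.5 and 44.0 at P2. In P1 it rose by 1.33 ± 0.32 (adjusted p = 0.014), and in P2 by 1.97 ± 0.32 (adjusted p = 0.00266). *Ccdc24* on the opposite strand covers 38.8% of its exonic length, and without stated use of strand the reads of such a pair cannot be told apart. *Ccdc24* is not in the tables, so *Slc6a9* is not among the 11 carriers that share exonic bases with another gene of the tables. Further carriers overlap only genes outside the tables. The taurine carrier gene *Slc6a6* had 130.0 and 153 scaled units at P0, 297 and 302 at P1 and 293 and 381 at P2. On the log2 scale it rose by 1.08 (adjusted p = 0.00156) in P1 and by 1.24 (adjusted p = 0.000722) in P2. *Slc6a17*, a vesicular neutral amino acid carrier gene known from neurons, had 10.7 and 11.9 scaled units at P0, 3.74 and 5.07 at P1 and 4.27 and 6.25 at P2. It fell in P1, at -1.19 (adjusted p = 0.0048), and stood just under 2-fold in P2, at -0.99 (adjusted p = 0.00859).

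The 7 genes of the sodium-coupled Slc38 family did not share a direction. *Slc38a6* (ENSMUSG00000044712, chr12:73286779-73354049), a member whose substrates are less well known, had 565 and 609.8 scaled units at P0, 158 and 169 at P1 and 123 and 192 at P2. It fell, with log2 fold changes of -1.84 ± 0.20 (adjusted p = 0.000711) in P1 and -1.92 ± 0.20 (adjusted p = 0.000444) in P2. *Slc38a7*, which encodes a lysosomal glutamine carrier, had 7.80 and 9.19 scaled units at P0, 25.2 and 27.0 at P1 and 34.5 and 38.7 at P2. It rose in both passages, with log2 fold changes of 1.51 (adjusted p = 0.000302) and 1.99 (adjusted p = 9.11e-05). *Slc38a4* had 69.5 and 82.4 scaled units at P0, 163 and 210.2 at P1 and 84.0 and 143 at P2. It rose in P1 (1.28, adjusted p = 0.00761) and was not called in P2 (0.53, adjusted p = 0.125), where its lower library was next to the fresh values. *Slc38a1* and *Slc38a2*, glutamine and small neutral amino acid carrier genes that lie 44 kb apart, were not called. *Slc38a1* had log2 fold changes of 0.35 and 0.68, whereas *Slc38a2*, with 292 and 313 scaled units at P0, 184 and 210.2 at P1 and 184 and 232 at P2, was lower in every cultured library (-0.62 and -0.55).

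Further genes of the group fell. *Slc43a3* and *Slc43a1* lie 73 kb apart on chromosome 2, and the first is known to carry purine bases rather than amino acids, so its place in this group follows from its number only. *Slc43a3* had 47.3 and 48.2 scaled units at P0, 19.0 and 19.3 at P1 and 13.4 and 14.6 at P2. It fell in both passages, to log2 fold changes of -1.27 (adjusted p = 0.000265) and -1.70 (adjusted p = 7.73e-05). *Slc43a1*, a leucine carrier gene, had 29.5 and 29.8 scaled units at P0, 14.9 and 15.6 at P1 and 9.72 and 14.3 at P2. The difference was -0.91 (adjusted p = 0.00654) in P1, without a call, and -1.26 (adjusted p = 0.00156) in P2, with one. *Slc36a1*, a lysosomal proton-coupled amino acid carrier gene named here after its values were seen, had 6.73 and 6.94 scaled units at P0, 15.8 and 18.6 at P1 and 21.8 and 25.0 at P2. The gene rose by 1.21 (adjusted p = 0.000815) in P1 and 1.64 (adjusted p = 0.000207) in P2.

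**Figure D2:**
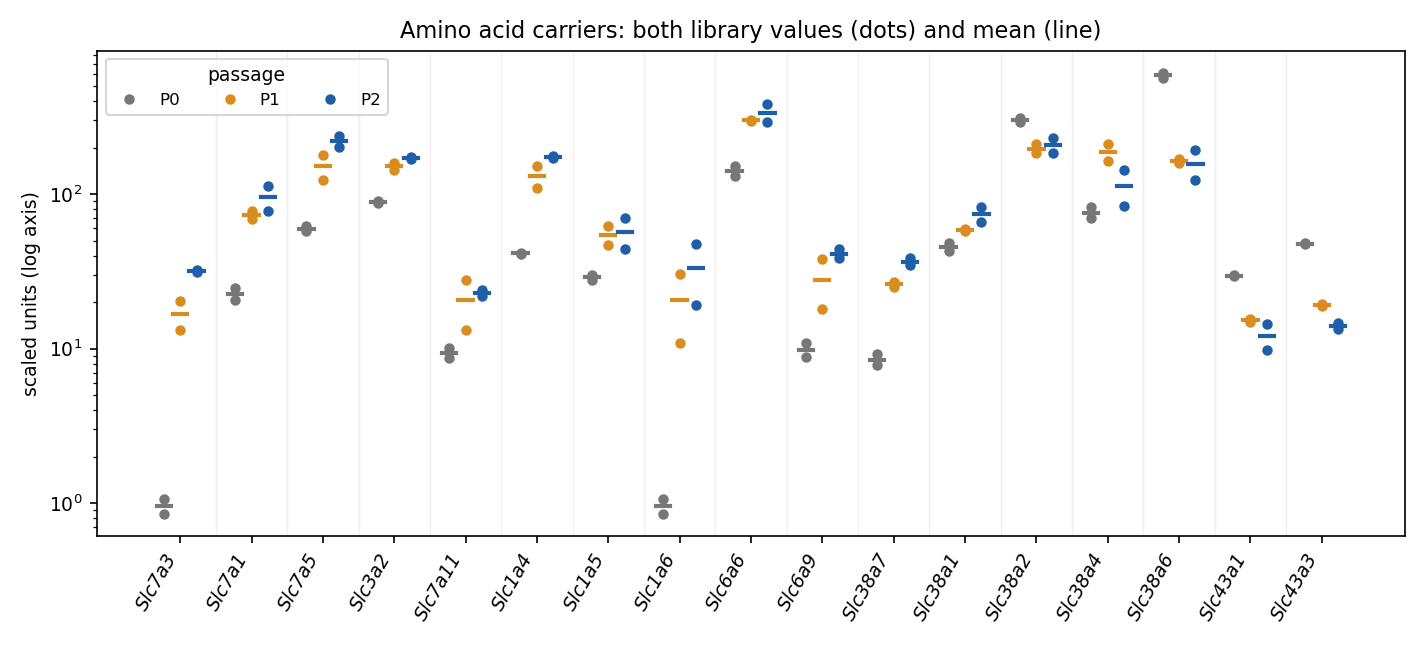
Expression of 17 amino acid carrier genes in scaled units on a log axis, with a dot for each of the 2 libraries of a passage and a line at their mean (grey P0, orange P1, blue P2). *Slc7a3* and *Slc1a6* lie near 1 scaled unit in P0 and above 10 in every cultured library, and *Slc38a6* is lower in all 4 cultured libraries.

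Other genes of the ATF4 pathway were measured beside these carriers, from a list that leaves the carriers out. All 19 listed genes were in the tables. In P1, 11 rose and 1 fell (median log2 fold change 1.50), beside 12.2% and 12.0% of all genes. In P2, 14 rose and 1 fell (median 1.80), beside 14.0% and 14.4%. Among those that rose, *Trib3*, *Chac1* and *Nupr1* passed the minimum of the tables through cultured cells alone, so they had to differ to be listed. *Asns*, which makes asparagine, had 41.9 and 43.9 scaled units at P0, 176 and 259 at P1 and 275 and 284 at P2. Its rise was 2.29 (adjusted p = 0.000223) in P1 and 2.68 (adjusted p = 9.66e-05) in P2. *Trib3*, a pseudokinase gene of the pathway, had 0.107 and 0.107 scaled units at P0, 25.3 and 48.3 at P1 and 53.4 and 76.4 at P2. It was called higher in P1, at 5.02 (adjusted p = 0.000117), and in P2, at 5.87 (adjusted p = 5.49e-05). The gene that fell, *Atf3*, encodes a stress-induced transcription factor and had 125 and 136 scaled units at P0, 7.16 and 24.8 at P1 and 11.3 and 43.1 at P2. *Atf4* itself had 242 and 245 scaled units at P0, 360.0 and 419 at P1 and 428 and 440.0 at P2 and was under 2-fold (0.67 and 0.83). Whether the pathway bears on the carriers was not tested.

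Of the sugar carriers, 2 of 12 were called higher (16.7%) and 1 lower (8.3%) in P1, where 12.2% of all genes were higher and 12.0% lower. In P2, 2 were higher (16.7%) and 2 lower (16.7%), beside 14.0% and 14.4% of all genes. The group was set by carrier number and includes *Slc5a6* and *Slc5a7*, of a family that also takes up vitamins and other organic solutes. None of the 3 genes of that family was called. *Slc2a1* (ENSMUSG00000028645, chr4:119108711-119137330), the common glucose carrier gene, had 64.3 and 84.8 scaled units at P0, 83.9 and 108 at P1 and 81.7 and 112 at P2. Its libraries overlapped between fresh and cultured cells, and its changes of 0.36 ± 0.22 (adjusted p = 0.192) in P1 and 0.37 ± 0.22 (adjusted p = 0.181) in P2 were not called. *Slc2a3*, a glucose carrier gene of high affinity known from neurons, had 62.2 and 63.6 scaled units at P0, 30.7 and 46.5 at P1 and 27.1 and 33.2 at P2. All cultured libraries were below the fresh ones, without a call in P1, at -0.72 (adjusted p = 0.0254), and with one in P2, at -1.04 (adjusted p = 0.00561). *Slc2a13* (ENSMUSG00000036298, chr15:91267696-91573261), a proton-coupled myo-inositol carrier gene, had 29.8 and 33.5 scaled units at P0, 7.58 and 11.4 at P1 and 9.46 and 13.2 at P2. In P1 it fell, at -1.66 ± 0.23 (adjusted p = 0.00171), as it did in P2, at -1.42 ± 0.23 (adjusted p = 0.00254). *Slc2a6* (ENSMUSG00000036067, chr2:27021363-27027909), a glucose carrier gene of lysosomal membranes, had 0.107 and 0.214 scaled units at P0, 6.41 and 9.45 at P1 and 11.1 and 14.8 at P2. In P1 it rose by 2.92 ± 0.24 (adjusted p = 0.000262), and in P2 by 3.57 ± 0.24 (adjusted p = 9.77e-05). It passed the minimum of the tables through cultured cells alone. *Slc50a1*, a sugar carrier gene of the SWEET family, had 11.1 and 11.3 scaled units at P0, 23.8 and 27.8 at P1 and 22.2 and 31.1 at P2. On the log2 scale it rose by 1.13 (adjusted p = 0.0028) in P1 and by 1.16 (adjusted p = 0.00208) in P2. The second inositol carrier gene, *Slc5a3*, with 70.6 and 73.6 scaled units at P0, 41.0 and 59.3 at P1 and 37.8 and 102 at P2, was not called in either passage.

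Carriers of inorganic ions had 9 of 30 genes called higher (30.0%) and 5 lower (16.7%) in P1, beside 12.2% and 12.0% of all genes. In P2, 10 were higher (33.3%) and 5 lower (16.7%), beside 14.0% and 14.4%. The counts of the ion carriers rest largely on genes that had to differ to be listed. Of those called higher, 7 passed the minimum of the tables through cultured cells alone, and of those called lower, 3 passed it through P0 alone. Without these 10, 2 of 20 were higher (10.0%) and 2 lower (10.0%) in P1, against 8.7% and 9.1% of all genes treated alike. In P2, 3 of 20 were higher (15.0%) and 2 lower (10.0%), against 10.5% and 11.7%. The 3 magnesium carriers of the Slc41 family were all called. *Slc41a2* (ENSMUSG00000034591, chr10:83230848-83337882) had 3.21 and 3.31 scaled units at P0, 48.5 and 53.4 at P1 and 59.5 and 60.8 at P2. The gene rose by 3.61 ± 0.11 (adjusted p = 1.58e-05) in P1 and 3.84 ± 0.11 (adjusted p = 1.08e-05) in P2. *Slc41a3*, whose product is placed in mitochondria, had 0.855 and 1.50 scaled units at P0, 9.19 and 12.6 at P1 and 8.92 and 12.0 at P2. Its rise was 2.45 (adjusted p = 0.000537) in P1 and 2.40 (adjusted p = 0.000419) in P2. *Slc41a1* (ENSMUSG00000013275, chr1:131827493-131830276), which encodes a magnesium exchanger of the plasma membrane, had 72.1 and 75.5 scaled units at P0, 30.9 and 37.5 at P1 and 33.5 and 34.9 at P2. The gene fell, at -1.09 ± 0.12 (adjusted p = 0.000714) in P1 and -1.09 ± 0.12 (adjusted p = 0.000553) in P2. In each of the 3 genes the 4 cultured libraries lay entirely on one side of the fresh ones, and *Slc41a2* and *Slc41a3* passed the minimum of the tables through P1 and P2 alone.

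Calcium exchanger genes were called in both directions. *Slc8a1*, the sodium/calcium exchanger gene of heart and many other tissues, had 46.6 and 49.7 scaled units at P0, 42.2 and 49.7 at P1 and 53.7 and 67.8 at P2. The log2 fold changes of -0.07 in P1 and 0.32 in P2 were not called. *Slc8a3* (ENSMUSG00000079055, chr12:81197915-81333164), known from brain and skeletal muscle, had 15.8 and 19.6 scaled units at P0, 1.39 and 1.60 at P1 and 1.07 and 1.07 at P2. Its fall was called in P1, at -2.90 ± 0.18 (adjusted p = 0.000116), and in P2, at -3.17 ± 0.18 (adjusted p = 6.4e-05). *Slc8a2*, known from brain, had 9.62 and 11.0 scaled units at P0, 0.427 and 0.641 at P1 and 0.0534 and 0.321 at P2. It fell in both passages, to log2 fold changes of -2.88 (adjusted p = 0.000228) and -3.26 (adjusted p = 0.00011). *Slc8a2* and *Slc8a3* passed the minimum of the tables through P0 alone. *Slc24a3* (ENSMUSG00000063873, chr2:145167754-145642166), a potassium-dependent sodium/calcium exchanger gene, had 2.94 and 3.63 scaled units at P0, 21.6 and 25.1 at P1 and 32.7 and 35.8 at P2. It was called higher in P1, at 2.51 ± 0.15 (adjusted p = 9.66e-05), and in P2, at 3.04 ± 0.15 (adjusted p = 3.78e-05). *Slc8b1*, the mitochondrial sodium/calcium exchanger gene, had 3.69 and 4.06 scaled units at P0, 12.3 and 13.6 at P1 and 17.4 and 23.7 at P2. In P1 it rose by 1.52 (adjusted p = 0.000892), and in P2 by 2.13 (adjusted p = 0.000195). Both rising genes passed the minimum through cultured cells alone.

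Of the bicarbonate and anion carriers, *Slc4a1*, which encodes the band 3 protein of red cells, had 12.2 and 18.9 scaled units in fresh cells. All 4 cultured libraries list it at 0. Red cell markers were also lower in culture. All 9 of the 21 listed markers that were in the tables fell in P1, beside 12.0% of all genes. Their summed level was 12126 scaled units in P0, 5.69 in P1 and 11.6 in P2, with 2 of the 9 at 0 in P1 and 3 at 0 in P2. A marker this low in culture was in the tables only because it was high in P0, so it had to differ. In bulk samples, fewer cells of a type and less RNA per cell cannot be told apart. *Slc4a4* (ENSMUSG00000060961, chr5:88887297-89234867), a sodium bicarbonate cotransporter gene, had 1.92 and 2.46 scaled units at P0, 6.73 and 8.39 at P1 and 9.30 and 11.7 at P2. On the log2 scale it rose by 1.42 ± 0.19 (adjusted p = 0.0016) in P1 and by 1.84 ± 0.19 (adjusted p = 0.000456) in P2. *Slc4a10*, a second sodium-dependent bicarbonate carrier gene, had 0.214 and 0.214 scaled units at P0, 5.02 and 5.88 at P1 and 6.84 and 9.08 at P2. The gene rose by 2.41 (adjusted p = 0.000287) in P1 and 2.87 (adjusted p = 0.000117) in P2. *Slc4a2*, a chloride/bicarbonate exchanger gene named here after its values were seen, had 49.4 and 50.5 scaled units at P0, 107 and 123 at P1 and 129 and 182 at P2. Its rise was 1.18 (adjusted p = 0.00207) in P1 and 1.60 (adjusted p = 0.000511) in P2, and 14.9% of its exonic length is shared with *Fastk*. Its relative *Slc4a3* had 44.3 and 48.8 scaled units at P0, 20.4 and 24.9 at P1 and 24.9 and 31.9 at P2. It fell in P1 (-1.01, adjusted p = 0.00284) but was not called in P2 (-0.70, adjusted p = 0.0101). *Slc26a7*, an anion exchanger gene, had 37.5 and 43.9 scaled units at P0, 22.9 and 23.3 at P1 and 12.1 and 18.9 at P2. It was not called in P1, at -0.79 (adjusted p = 0.0189), but was called in P2, at -1.36 (adjusted p = 0.00194).

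*Slc20a1* (ENSMUSG00000027397, chr2:129198764-129211616), a sodium-dependent phosphate carrier gene, had 77.9 and 81.7 scaled units at P0, 136 and 180.4 at P1 and 172 and 192 at P2. Its change was 0.96 ± 0.15 (adjusted p = 0.00254) in P1 and a called rise of 1.18 ± 0.15 (adjusted p = 0.000925) in P2. *Slc20a2*, its relative, had 35.7 and 37.3 scaled units at P0, 49.1 and 55.1 at P1 and 51.0 and 55.5 at P2. It was not called, at 0.50 in P1 and 0.53 in P2. *Slc12a2*, the sodium-potassium-chloride cotransporter gene, was higher in all cultured libraries with 91.1 and 99.5 scaled units at P0, 175 and 190.1 at P1 and 161 and 222 at P2, at 0.93 (adjusted p = 0.00396) and 0.98 (adjusted p = 0.00269), which is under 2-fold. *Slc12a4*, a potassium-chloride cotransporter gene named here after its values were seen, had 59.2 and 59.4 scaled units at P0, 131 and 147 at P1 and 159 and 170.5 at P2. It was called higher in P1, at 1.21 (adjusted p = 0.00024), and in P2, at 1.46 (adjusted p = 9.51e-05). The sulfate carrier gene *Slc26a2*, which supplies sulfate for cartilage matrix, had 30.3 and 34.7 scaled units at P0, 44.9 and 47.8 at P1 and 54.1 and 63.7 at P2. Neither difference was called, at 0.50 in P1 and 0.84 in P2.

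**Figure D3:**
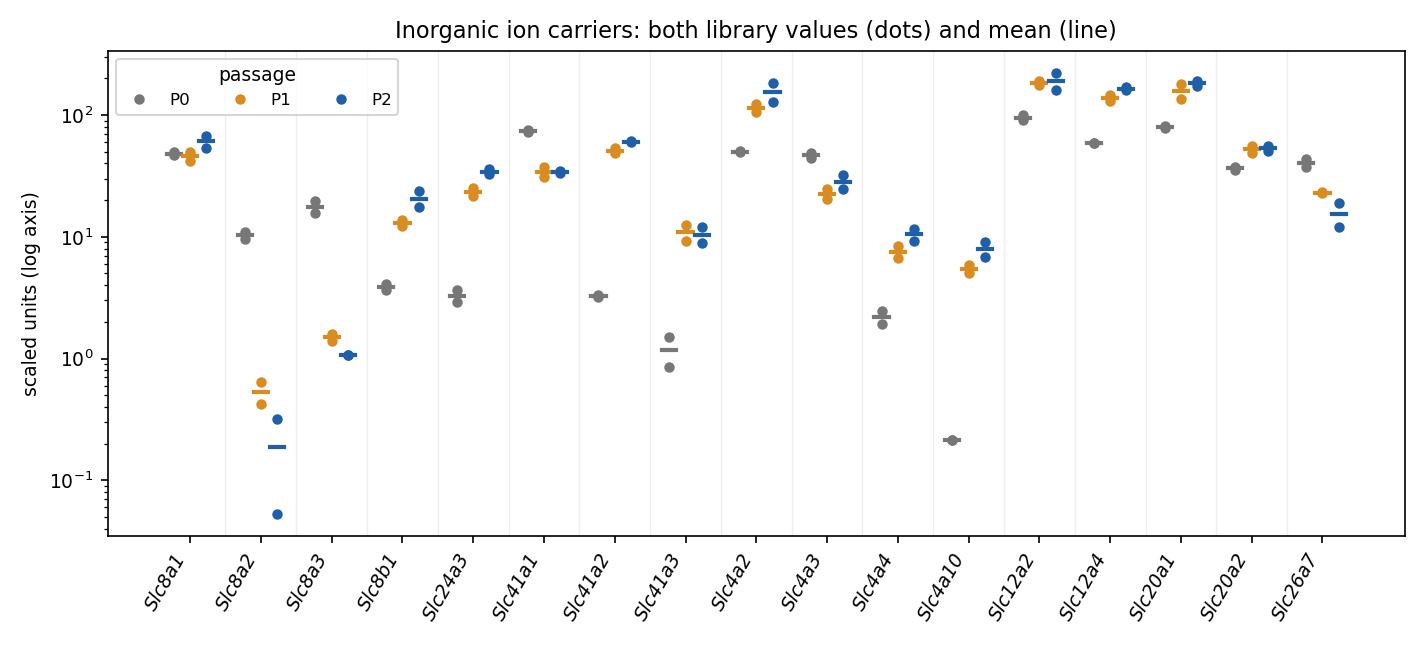
Expression of 17 inorganic ion carrier genes in scaled units on a log axis, with a dot for each library and a line at the mean of the passage (grey P0, orange P1, blue P2). Within the Slc8 and Slc41 families some genes are higher and others lower in cultured cells, as *Slc41a2* (listed through cultured cells alone) and *Slc41a1* show.

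Metal carriers had 3 of 21 genes called higher (14.3%) and 2 lower (9.5%) in P1, beside 12.2% and 12.0% of all genes. In P2, 4 were higher (19.0%) and 2 lower (9.5%), beside 14.0% and 14.4%, and the zinc importers of the Slc39 family were found on both sides. *Slc39a13* (ENSMUSG00000002105, chr2:91061791-91070417), which encodes a zinc carrier of intracellular membranes that connective tissue needs, had 24.8 and 26.2 scaled units at P0, 82.3 and 94.0 at P1 and 89.3 and 115 at P2. In P1 it rose by 1.75 ± 0.15 (adjusted p = 0.000283), and in P2 by 1.95 ± 0.15 (adjusted p = 0.000138). *Slc39a7*, a zinc carrier gene of the endoplasmic reticulum, had 184 and 195 scaled units at P0, 366 and 395 at P1 and 419 and 419 at P2. In P1 it rose by 1.0 (adjusted p = 0.000287), and in P2 by 1.14 (adjusted p = 0.000132). Its call in P1 rests on the threshold, since it was 0.98 after median-ratio and 0.99 after upper-quartile scaling, and 84.5% of its exonic length is shared with *Gm20427* on the same strand. *Slc39a14*, a carrier gene for zinc and iron, had 44.6 and 45.4 scaled units at P0, 82.4 and 91.5 at P1 and 95.6 and 116 at P2. The difference was 0.93 (adjusted p = 0.00133) in P1, without a call, and 1.21 (adjusted p = 0.000384) in P2, with one.

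The zinc importer genes of the plasma membrane *Slc39a10* and *Slc39a8* fell. *Slc39a10* (ENSMUSG00000025986, chr1:46807544-46854046) had 87.4 and 99.9 scaled units at P0, 38.6 and 46.9 at P1 and 30.1 and 36.8 at P2, with log2 fold changes of -1.12 ± 0.15 (adjusted p = 0.00156) and -1.46 ± 0.15 (adjusted p = 0.000429). *Slc39a8* had 11.2 and 12.9 scaled units at P0, 3.58 and 3.74 at P1 and 2.67 and 4.06 at P2, with -1.49 (adjusted p = 0.00156) and -1.60 (adjusted p = 0.000916), and passed the minimum of the tables through P0 alone. *Slc30a1* (ENSMUSG00000037434, chr1:191906767-191913247), the zinc exporter gene whose promoter is shown above, had 36.9 and 45.7 scaled units at P0, 21.5 and 22.5 at P1 and 20.8 and 23.7 at P2. It was lower in all cultured libraries, but its changes of -0.87 ± 0.14 (adjusted p = 0.00291) and -0.86 ± 0.14 (adjusted p = 0.00257) were under 2-fold. The metallothionein genes *Mt1* and *Mt2*, which encode metal-binding proteins and are known MTF1 targets as *Slc30a1* is, rose. Both passed the minimum of the tables through cultured cells alone. *Mt1* had 0.588 and 1.07 scaled units at P0, 22.1 and 22.6 at P1 and 20.6 and 39.1 at P2, with 3.69 (adjusted p = 0.000271) and 4.02 (adjusted p = 0.000143), and *Mt2* had 0.214 and 0.321 scaled units at P0, 10.4 and 14.7 at P1 and 8.92 and 15.7 at P2.

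Iron and heme carriers were led by *Slc48a1* (ENSMUSG00000081534, chr15:97784355-97792692), which encodes a heme carrier of endosomes and lysosomes. It had 17.8 and 18.9 scaled units at P0, 60.5 and 66.0 at P1 and 54.8 and 75.9 at P2. On the log2 scale it rose by 1.73 ± 0.16 (adjusted p = 0.00044) in P1 and by 1.76 ± 0.16 (adjusted p = 0.0003) in P2. The iron importer gene *Slc11a2* had 41.2 and 44.5 scaled units at P0, 60.2 and 68.1 at P1 and 63.9 and 76.0 at P2. The log2 fold changes of 0.57 in P1 and 0.69 in P2 were not called. The iron exporter gene *Slc40a1* had 12.8 and 13.9 scaled units at P0, 6.52 and 20.2 at P1 and 8.23 and 24.8 at P2, and its cultured duplicates spanned the fresh ones. Of 12 measured genes in a list of 16 for iron, zinc and copper handling, 4 rose and 1 fell in each passage. Of all genes, 12.2% rose and 12.0% fell in P1, and 14.0% and 14.4% in P2. Among those of the list that rose, *Mt1*, *Mt2* and *Steap3* passed the minimum of the tables through cultured cells alone, so they had to differ to be listed. *Hmox1*, which degrades heme, had 13.1 and 14.4 scaled units at P0, 86.8 and 109 at P1 and 77.8 and 124 at P2, and *Heph*, a ferroxidase gene, fell with 117 and 121 scaled units at P0, 30.6 and 36.3 at P1 and 27.5 and 30.8 at P2. *Steap3*, an iron reductase gene, rose with 2.78 and 2.83 scaled units at P0, 26.0 and 31.7 at P1 and 18.6 and 34.2 at P2.

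**Figure D4:**
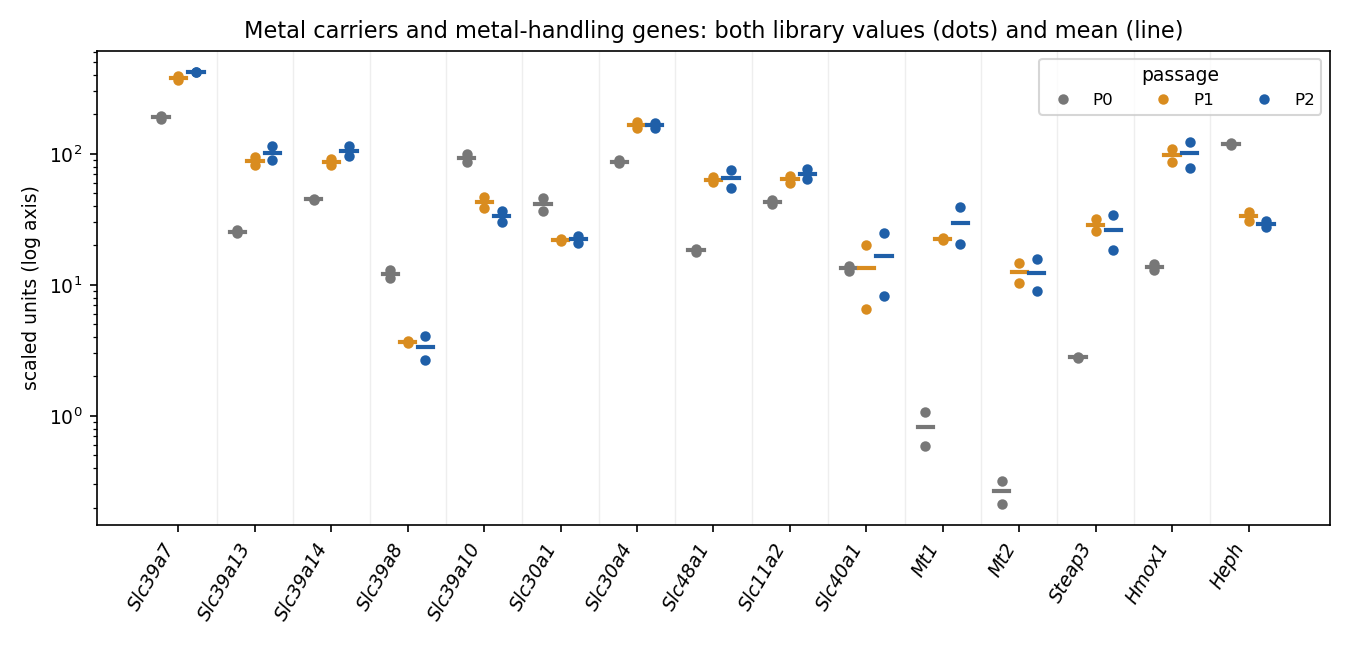
Expression of 10 metal carrier genes and 5 metal-handling genes in scaled units on a log axis, with a dot for each library and a line at the mean of the passage (grey P0, orange P1, blue P2). *Slc39a13* and *Slc48a1* are higher and *Slc39a8* and *Slc39a10* lower in all 4 cultured libraries, and *Mt1* and *Mt2* are near or under 1 scaled unit in P0.

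Of the 31 mitochondrial Slc25 carriers, 2 were called higher (6.5%) and 2 lower (6.5%) in P1, beside 12.2% and 12.0% of all genes. In P2, 2 were higher (6.5%) and none lower, beside 14.0% and 14.4%. *Slc25a1* (ENSMUSG00000003528, chr16:17925211-17928219), the citrate carrier gene that feeds fatty acid synthesis, had 35.5 and 39.3 scaled units at P0, 77.7 and 98.1 at P1 and 103 and 111 at P2. The gene rose by 1.20 ± 0.14 (adjusted p = 0.000804) in P1 and 1.49 ± 0.14 (adjusted p = 0.000276) in P2. The paralogs *Slc25a24* and *Slc25a25*, which both encode ATP-magnesium/phosphate carriers, moved apart. *Slc25a24* had 54.1 and 55.7 scaled units at P0, 107 and 139 at P1 and 91.7 and 108 at P2. It rose by 1.14 (adjusted p = 0.00137) in P1 and was under 2-fold in P2 (0.84, adjusted p = 0.00355). *Slc25a25* (ENSMUSG00000026819, chr2:32414487-32431119) had 85.6 and 92.2 scaled units at P0, 28.6 and 41.7 at P1 and 38.2 and 50.8 at P2. It fell in P1 (-1.34 ± 0.21, adjusted p = 0.00273), and in P2 it stood at the 2-fold limit without a call (-1.0 ± 0.21, adjusted p = 0.00735). *Naif1* on the opposite strand covers 9.2% of its exonic length. The pyrimidine nucleotide carrier genes *Slc25a33* and *Slc25a36* also went opposite ways. *Slc25a33* had 4.81 and 6.62 scaled units at P0, 10.2 and 12.4 at P1 and 13.2 and 15.6 at P2. It was not called in P1, at 0.88 (adjusted p = 0.00963), but was called in P2, at 1.21 (adjusted p = 0.00233). *Slc25a36* had 222 and 258 scaled units at P0, 95.4 and 120.3 at P1 and 116 and 135 at P2. It fell in P1 (-1.15, adjusted p = 0.00138), with -0.93 (adjusted p = 0.00254) in P2. The 29 genes without a call in P2 lay between -1.0 and 0.96, and the 27 without a call in P1 between -0.75 and 0.88. The ADP/ATP carrier genes *Slc25a4*, with 524 and 566 scaled units at P0, 676 and 676 at P1 and 644 and 644 at P2, and *Slc25a5*, with 405 and 457 scaled units at P0, 297 and 344 at P1 and 269 and 314 at P2, were not called. *Slc25a37*, which brings iron into mitochondria and is known from red cell precursors, had 41.1 and 46.0 scaled units at P0, 21.2 and 30.6 at P1 and 20.3 and 35.7 at P2. It was not called, at -0.75 (adjusted p = 0.0648) in P1 and -0.67 (adjusted p = 0.0838) in P2.

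Carriers of monocarboxylates, vitamins and other organic solutes had 7 of 26 genes called lower (26.9%) and 4 higher (15.4%) in each passage, beside 12.0% lower and 12.2% higher of all genes in P1 and 14.4% and 14.0% in P2. Without the 7 genes listed through one side alone, 4 of 19 were lower (21.1%) and 2 higher (10.5%) in each passage, against 9.1% and 8.7% of all genes treated alike in P1 and 11.7% and 10.5% in P2. *Slc16a1* (ENSMUSG00000032902, chr3:104638668-104658462), which carries lactate and pyruvate, had 121 and 127 scaled units at P0, 55.0 and 64.3 at P1 and 52.8 and 53.6 at P2. In P1 it fell, at -1.05 ± 0.11 (adjusted p = 0.000535), as it did in P2, at -1.21 ± 0.11 (adjusted p = 0.00024). The lactate exporter gene *Slc16a3* had 30.6 and 34.5 scaled units at P0, 27.2 and 28.7 at P1 and 40.8 and 41.8 at P2. Neither difference was called, at -0.21 in P1 and 0.34 in P2. *Slc16a10*, which carries aromatic amino acids and thyroid hormone, had 10.4 and 11.3 scaled units at P0, 2.03 and 2.56 at P1 and 1.50 and 1.50 at P2. Its fall was called in P1, at -1.85 (adjusted p = 0.000427), and in P2, at -2.25 (adjusted p = 0.000158). Of the same family, *Slc16a4*, with 7.91 and 8.65 scaled units at P0, 15.4 and 20.7 at P1 and 21.2 and 25.3 at P2, and *Slc16a7*, a pyruvate carrier gene with 3.21 and 3.74 scaled units at P0, 7.96 and 8.65 at P1 and 8.81 and 9.94 at P2, rose in both passages. The accessory protein genes *Bsg* and *Emb*, whose products bring monocarboxylate carriers to the membrane, differed in direction. *Emb* had 15.4 and 17.0 scaled units at P0, 5.88 and 7.69 at P1 and 5.02 and 8.98 at P2 and fell in both passages, whereas *Bsg* had 149 and 151 scaled units at P0, 245 and 268 at P1 and 285 and 324 at P2 and rose in P2 only (1.01, adjusted p = 0.00036), with 0.77 (adjusted p = 0.00133) in P1. In the list of carrier partners as a whole, with 20 of 23 genes measured, 2 rose and 2 fell in P1 (12.2% and 12.0% of all genes), and 4 rose and 1 fell in P2 (14.0% and 14.4% of all genes).

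*Slc19a2* (ENSMUSG00000040918, chr1:164249046-164265385), a thiamine carrier gene, had the largest rise of the group. Its values were 13.1 and 18.6 scaled units at P0, 70.3 and 97.3 at P1 and 58.8 and 89.8 at P2, and it rose by 2.33 ± 0.27 (adjusted p = 0.000891) and 2.15 ± 0.27 (adjusted p = 0.000919). The proton-coupled folate carrier gene *Slc46a1* had 2.83 and 2.88 scaled units at P0, 7.91 and 8.71 at P1 and 8.65 and 8.71 at P2. Its rise was 1.27 (adjusted p = 0.000755) in P1 and 1.33 (adjusted p = 0.000477) in P2, and the reduced folate carrier gene *Slc19a1* was not called (0.42 and 0.45). *Slc22a17* (ENSMUSG00000022199, chr14:54906727-54913132), which encodes a receptor for the iron-siderophore protein lipocalin, had 51.6 and 60.3 scaled units at P0, 9.61 and 9.61 at P1 and 7.32 and 10.1 at P2. It fell in both passages, to log2 fold changes of -2.42 ± 0.17 (adjusted p = 0.000165) and -2.56 ± 0.17 (adjusted p = 9.74e-05). *Slc22a23*, whose substrate is not well known, fell with 11.8 and 13.2 scaled units at P0, 2.88 and 3.21 at P1 and 3.47 and 3.63 at P2. The choline carrier family also fell in part. *Slc44a5* had 9.40 and 11.2 scaled units at P0, 0.961 and 1.07 at P1 and 0.641 and 0.748 at P2. In P1 it fell, at -2.48 (adjusted p = 0.000218), as it did in P2, at -2.73 (adjusted p = 0.000114), and *Slc44a1*, the choline carrier gene named here after its values were seen, had 161 and 168 scaled units at P0, 60.9 and 84.9 at P1 and 54.4 and 71.5 at P2. The gene fell, at -1.18 (adjusted p = 0.00316) in P1 and -1.38 (adjusted p = 0.00139) in P2.

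Of the 25 carriers of nucleosides, sugar nucleotides and other solutes of the Golgi and endoplasmic reticulum, 3 rose (12.0%) and 1 fell (4.0%) in P1, and 4 rose (16.0%) and 1 fell (4.0%) in P2, beside 12.2% and 12.0% of all genes in P1 and 14.0% and 14.4% in P2. *Slc35a2* (ENSMUSG00000031156, chrX:7884041-7894492), the UDP-galactose carrier gene of the Golgi, had 25.5 and 27.9 scaled units at P0, 54.0 and 72.4 at P1 and 64.7 and 71.7 at P2. It was called higher in P1, at 1.20 ± 0.16 (adjusted p = 0.00137), and in P2, at 1.32 ± 0.16 (adjusted p = 0.000738). *Slc35f6* had 14.6 and 18.1 scaled units at P0, 49.1 and 50.4 at P1 and 54.2 and 58.1 at P2. In P1 it rose by 1.56 (adjusted p = 0.00026), and in P2 by 1.73 (adjusted p = 0.00013). *Slc35f2* (ENSMUSG00000042195, chr9:53771535-53818161) had 20.4 and 21.5 scaled units at P0, 2.78 and 4.17 at P1 and 1.87 and 3.85 at P2. Its fall was called in P1, at -2.31 ± 0.29 (adjusted p = 0.00114), and in P2, at -2.55 ± 0.29 (adjusted p = 0.000596), and it passed the minimum of the tables through P0 alone. *Slc35d1*, a sugar nucleotide carrier gene that cartilage needs, had 8.12 and 9.56 scaled units at P0, 5.55 and 8.12 at P1 and 4.86 and 7.11 at P2 and was not called. *Slc29a3*, a nucleoside carrier gene of lysosomes, had 2.67 and 3.31 scaled units at P0, 10.8 and 11.3 at P1 and 10.9 and 11.0 at P2. On the log2 scale it rose by 1.60 (adjusted p = 0.000389) in P1 and by 1.59 (adjusted p = 0.000286) in P2. *Slc29a1*, the nucleoside carrier gene of the plasma membrane, was not called, at -0.72 (adjusted p = 0.00403) in P1 and -0.29 (adjusted p = 0.091) in P2. *Slc33a1*, which carries acetyl-CoA into the endoplasmic reticulum, had 29.3 and 30.9 scaled units at P0, 55.9 and 59.5 at P1 and 63.0 and 66.6 at P2. The difference was 0.92 (adjusted p = 0.000591) in P1, without a call, and 1.08 (adjusted p = 0.000244) in P2, with one, and 32.0% of its exonic length is shared with *Gm26850*. The 20 genes of the group without a call in P2 lay between -0.84 and 0.99 on the log2 scale. Of the genes named after a carrier, *Slc7a6os* fell in P2 (-1.05, adjusted p = 0.00262), with 27.7 and 29.5 scaled units at P0, 14.7 and 17.5 at P1 and 11.4 and 15.5 at P2.

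Between the 2 passages no carrier was called. In limma, 0 of the 177 genes were called higher in P2 and 0 were called lower against P1, beside 0.0878% of all genes called higher and 0.211% called lower. At an unadjusted limma p under 0.05 there were 26 of the 177 carriers, beside 1630 of all 11386 genes, which is a similar share. Of the 26, 19 were higher and 7 lower in P2, and the lowest adjusted p was 0.0779. In a fit without the P0 libraries, 17 of 174 genes had an unadjusted p under 0.05 and the lowest adjusted p was 0.232. The values over all genes for this count and for the split of 19 and 7 were not computed. Among the largest differences, the glutamate carrier gene *Slc1a3* had 20.5 and 24.0 scaled units in P2 and 36.5 and 59.2 in P1 (log2 fold change -1.03 ± 0.23, adjusted p = 0.115), against 23.4 and 26.0 in P0. *Slc7a3* was higher in both P2 libraries than in both P1 libraries (0.91 ± 0.21, adjusted p = 0.126), and so were *Slc2a6* (0.65, adjusted p = 0.303), *Slc6a9* (0.63, adjusted p = 0.462) and the anion carrier gene *Slc26a11* (0.68, adjusted p = 0.12). *Slc26a11* had 9.83 and 11.5 scaled units at P0, 5.77 and 6.94 at P1 and 10.4 and 11.2 at P2, so that its P2 values lay within the fresh ones. *Slc38a4* was lower in both P2 libraries (-0.75, adjusted p = 0.286).

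**Figure D5:**
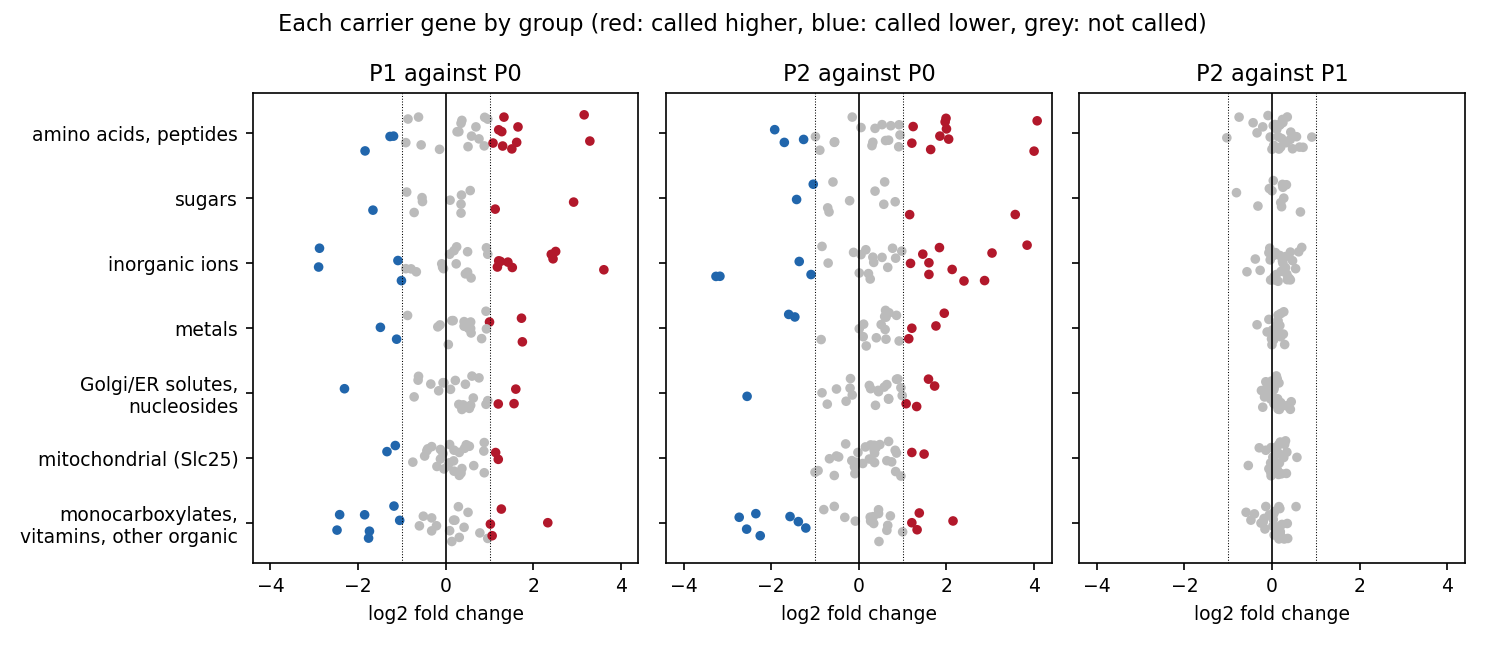
Log2 fold change of each carrier gene (dots, without *Slc4a1*, which is listed at 0 in culture, and the 3 genes named after a carrier) by group in P1 against P0, P2 against P0 and P2 against P1, with called genes in red (higher) or blue (lower), other genes in grey, and dotted lines at a 2-fold change. In the first 2 panels values run from -2.90 (*Slc8a3*) to 3.61 (*Slc41a2*) and from -3.26 (*Slc8a2*) to 4.07 (*Slc7a3*), and in P2 against P1 they lie between -1.03 and 0.91 with no gene called.

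The duplicates of a carrier differed by a median of 0.12 on the log2 scale in P0, 0.19 in P1 and 0.21 in P2, against 0.10, 0.18 and 0.17 over all genes. All 12 listed dental mesenchyme markers were in the tables, and their summed level was 12026 scaled units in P0, 18407 in P1 and 17595 in P2, with 2 of them called higher and 4 lower in each of P1 and P2. The rise of the sum came from *Col1a1*, with 686 scaled units in P0, 2138 in P1 and 5287 in P2, and from *Vim*, with 1504, 7148 and 3423. *Col1a2* was at 7148, 7148 and 7149, the other 9 were lower, and the median log2 fold change of the list was -0.25 in P1 and -0.41 in P2. The level of 7148 also occurred for *Vim* in both P1 libraries and for a *Hbb-y* library in P0, and 7149 for a *Col1a1* library in P2. Such top values recur across genes, so these levels and the sum need not follow amounts of RNA. Most measured markers of other cell types were lower in culture, where 12.0% of all genes were called lower in P1 and 14.4% in P2. A marker near 0 in cultured cells was in the tables only if it passed their minimum through P0. Such a marker had to differ to be listed, so the counts of markers that fell rest in part on this minimum. The 13 of 15 endothelial markers measured summed to 552 scaled units in P0, 85.1 in P1 and 99.1 in P2, with 3 of them at 0 in P1 and 4 at 0 in P2, and 11 fell in P1. *Flt1* (32.6, 34 and 50.9) and *Eng* (23.7, 33 and 34.8) did not fall and made up most of the sum in culture. The 5 of 18 macrophage markers summed to 81.0, 17.8 and 53.3, with none at 0, and 3 fell in P1 and in P2. *Lyz2*, a lysozyme gene of macrophages, was at 7.67, 6.25 and 36.9 scaled units, and was called higher in P2 against P0 (log2 fold change 2.05 ± 0.34, limma adjusted p = 0.00284) and against P1 (2.33, limma adjusted p = 0.0474). The 5 of 14 dental epithelium markers summed to 109, 1.76 and 1.55, with 2 at 0 in P2, and all 5 fell in P1. The 6 of 15 markers of Schwann cells and neurons summed to 155, 86.4 and 69.1, with none at 0, and 2 rose and 4 fell in P1. Those that rose, *Tubb3* (10.8, 57.3 and 42) and *Stmn2* (2.78, 22.1 and 24), made up most of the sum in culture. These values are in the order P0, P1 and P2. Any gene that was lower in culture shares its direction with the carriers that fell, so the shared direction carries no information. The part of other cell types in those falls was not tested.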

How the data were processed

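Total RNA of mDMCs at P0, P1 and P2 was sequenced in 2 libraries per passage. Per the methods of the study and the submitters' notes, the authors aligned reads with bowtie to mouse transcripts (mm10), estimated gene counts with RSEM (version 1.1.21 in the notes), corrected them for GC content with EDASeq, and tested them with DESeq2. The deposited values are the mean and the error of the authors' normalized expression score in each passage, for 11386 genes with more than 100 in at least 2 libraries. They are not counts, so the reads per library are not given in the sources used here, and no count test or counting interval was computed.

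The mean plus or minus the error times the square root of the library number gave whole library values (tolerance 1e-06) for all 11386 genes, but not which library each belongs to. The values were divided by the passage total, which was the same for all 3 passages, times 1000000. limma 3.58.1 in R 4.3.3 was fitted to log2(scaled value + 1) of all 6 libraries with a variance trend (3 residual and 3.06 prior degrees of freedom), with Benjamini-Hochberg adjustment over all genes in each of 3 comparisons. An exact permutation test of 2 libraries against 2 cannot go below p = 0.333. The fit was tested on simulated data. Alternatives covered the pseudocount, a filter on low values, scaling, the samples fitted, the variance trend and the fold threshold.

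Groups were set by carrier number, so that a few members carry another solute than their group. The genes described are 30 measured of 31 set by name, up to 5 per group and direction with the largest called change, without overlap of libraries and reaching 5 scaled units in 1 of the passages compared, and 6 genes for P2 against P1. Some genes that this rule names are not reported here. Members, groups and lists were chosen with earlier results of these data known. Promoters are from RefSeq (GRCm38.p6). Columns of the authors' own comparisons were not used.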

Additional observations from a re-analysis of the deposited data

How the results depend on the processing

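The counts of carriers called moved by over 1.5 times only with the fold threshold. Without a fold minimum, 77 were higher and 39 lower in P1 and 90 higher and 38 lower in P2, both against P0. At a minimum of 4-fold, 8 were higher and 6 lower in P1 and 11 higher and 8 lower in P2. The shares of all genes at these 2 thresholds were not computed. At an unadjusted limma p under 0.05 without a fold minimum, there were 127 of 177 carriers in P1, beside 7246 of all 11386 genes. In P2 there were 137 carriers, beside 7710 of all genes. Under the other alternatives, pseudocounts of 0.5 and 0.1, a minimum of 5 scaled units (which removed no gene), the deposited scale, median-ratio and upper-quartile scaling, no variance trend and only the libraries compared, 53 to 54 of the 54 calls in P1 and 57 of the 57 in P2 were kept. The one lost was *Slc39a7* in P1, at 0.98 and 0.99 under the 2 other scalings. The factors of these scalings lay between 0.990 and 1.007 (median-ratio) and between 0.994 and 1.004 (upper-quartile). With factors so close to 1 they could change few calls, so they do not show how the calls depend on the authors' normalization. *Slc7a11* was called in P1 at 1.02 with a pseudocount of 0.1 and at 1.03 on the deposited scale, and *Slc6a17* and *Slc25a25* were called in P2 under several settings. *Slc26a11* in P2 against P0 changed sign under median-ratio scaling (-0.00, against 0.01), without a call. Of the values of single genes under an alternative, 1902 kept their direction and side of the threshold, 12 passed it newly, 2 lost it and 1 changed sign.

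No paired analysis was possible because the deposited means and errors do not carry the replicate number, and for the same reason leaving out each library was not run. With 2 libraries per passage and no read depth, low values such as those under 1 scaled unit have no known counting error.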
